A study of Mus musculus with 30 samples.

Results

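The nuclear genes of oxidative phosphorylation were taken from a table of estimated counts per gene. They are the rows whose deposited symbol begins with Ndufa, Ndufb, Ndufc, Ndufs, Ndufv, Uqcr, Cox4i, Cox5, Cox6, Cox7, Cox8 or Atp5, or is Sdha, Sdhb, Sdhc, Sdhd or Cyc1, without the Ndufaf assembly factors. This gave 85 of 17562 rows: 37 of complex I, 4 of complex II, 9 of complex III, 19 of complex IV and 16 of complex V. A second row with the symbol Ndufa13 has the identifier of another gene, Yjefn3, in the GENCODE annotation and is called Yjefn3 here. It was kept by its deposited symbol alone and is included in the 37 of complex I and in the complex I values below. Ndufa4, a complex IV subunit in spite of its name, and its relative Ndufa4l2 were counted with complex IV. Atp5s, a coupling factor, was kept by its prefix although it is no subunit of the enzyme.

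The study sequenced RNA of haematopoietic stem cells, which flow sorting had taken from the bone marrow of male mice. The mice had been joined by surgery to share a circulation (parabiosis) or left unjoined. Young mice were 8 to 12 weeks old at the procedure and old mice 21 or 22 months. The strains were B6 and BoyJ, a congenic strain with another allele of the CD45 gene Ptprc, and no group carries a further allele or drug. The 29 libraries used here fall into 7 conditions. Unjoined young controls (YCNT) had 7 libraries, 3 of B6 and 4 of BoyJ, and unjoined old controls (OCNT) had 4, of which 1 was BoyJ. Young mice joined to a partner of like age (YISO, isochronic) had 4 libraries, 2 of each strain, and old ones (OISO) had 6, of which 1 was BoyJ. Young mice joined to an old partner (YHET, heterochronic) had 2 libraries, both BoyJ, and old mice joined to a young one (OHET) had 4, all B6. Old B6 cells that had lodged in the marrow of the young partner (OHETX) had 2 libraries. In the BoyJ mice the old groups were 21 months of age and in B6 22 months.

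Library totals ran from 7659468 to 30932977 counts. For 10 of the 29 count columns the title of a sample and the description of another name the same library, and the title was followed. Title and description meet for 19 libraries: 4 YCNT, 3 YISO, 2 YHET, 4 OCNT, 4 OISO, 2 OHET and 0 OHETX. The labels call the libraries biological replicates but do not say which mice were partners, so they were treated as independent. Of 8 stem cell markers 7 had a median of at least 10 CPM (counts scaled to the TMM-normalised library size), while 6 of 7 B cell, 5 of 7 monocyte or macrophage, 4 of 10 erythroid, 3 of 10 neutrophil and 4 of 8 endothelial or stromal markers were under 1 CPM. None of the 5 T or NK cell and 6 megakaryocyte markers in the table was under 1 CPM, and 2 and 4 of them had at least 10, as had 3 of the erythroid markers. The 3 OCNT libraries of B6 held high shares of immediate early genes, so that OCNT ran from 0.0593% to 0.477% of counts against 0.0371% to 0.0757% in YISO. The first OHETX library had the lowest total, 0.419% of counts in immediate early genes and 0.270% in neutrophil markers, against at most 0.0923% of the latter in OISO and 0.0261% in YCNT. YISOB6 replicate 1 had the highest share of cell cycle genes, 1.01%. In sorted bulk RNA, fewer cells of a kind and less RNA per cell cannot be told apart.

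Oxidative phosphorylation passes electrons from NADH (complex I) or succinate (complex II) through complex III to oxygen at complex IV, and the proton gradient this builds drives ATP synthesis at complex V. Most subunits are encoded in the nucleus and imported, while a small core of complexes I, III, IV and V is encoded in the mitochondrial genome. Quiescent haematopoietic stem cells are known for low respiration and reliance on glycolysis, and respiration is known to rise as they enter the cycle or differentiate.

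Promoters of respiratory genes are known to hold sites for NRF1, for ETS factors such as GABP and for YY1. RefSeq promoters (build GRCm38.p6) were matched for 69 of the 85 genes, giving 74 start sites. The letters GCGCATGC (NRF1) stood on either strand in 10.8% of the 74 windows of 250 bases before the start, against 2.26% of 32851 windows of all genes. CCGGAAG (ETS) stood in 16.2% against 6.91%, and AAGATGGC (YY1) in 1.35% against 1.56%. With the 50 bases after the start included, the shares were 13.5% against 2.71% for NRF1, 21.6% against 8.86% for ETS and 13.5% against 2.75% for YY1. Any of the 3 was present in 40.5% of these 300-base windows against 13.3%. The median GC content of the 250 bases was 56.2% against 52.4%, and a match describes letters, not binding. The 250 bases before 4 start sites are shown 5′ to 3′ on the gene's strand, with these letters or their complement in capitals. Ndufs8 (chr19:3912775-3913024, minus strand) is shown as the 1 gene called by edgeR in any comparison, and has none of the 3 motifs in this window, with the ETS letters among the 50 bases after the start. Cox6a1 (chr5:115348959-115349208), 1 of the 2 starts of Atp5j (chr16:84834977-84835226) and Atp5l (chr9:44920743-44920992), all on the minus strand, are shown as the windows with 2 different motifs.
Ndufs8: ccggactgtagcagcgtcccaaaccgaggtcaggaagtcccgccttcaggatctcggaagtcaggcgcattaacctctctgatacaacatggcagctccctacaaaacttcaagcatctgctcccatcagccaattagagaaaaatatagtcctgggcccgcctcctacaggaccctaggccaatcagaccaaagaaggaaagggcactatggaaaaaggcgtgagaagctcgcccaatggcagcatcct
Cox6a1: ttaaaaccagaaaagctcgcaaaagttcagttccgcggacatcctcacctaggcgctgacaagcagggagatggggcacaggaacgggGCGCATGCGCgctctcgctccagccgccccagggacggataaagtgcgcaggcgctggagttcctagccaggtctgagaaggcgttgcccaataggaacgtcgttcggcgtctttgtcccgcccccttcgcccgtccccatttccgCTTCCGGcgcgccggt
Atp5j: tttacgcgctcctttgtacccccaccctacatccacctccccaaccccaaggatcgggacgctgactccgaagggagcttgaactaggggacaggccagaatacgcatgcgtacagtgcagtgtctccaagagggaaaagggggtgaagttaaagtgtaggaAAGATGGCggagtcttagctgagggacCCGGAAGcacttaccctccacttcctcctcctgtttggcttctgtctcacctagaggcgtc
Atp5l: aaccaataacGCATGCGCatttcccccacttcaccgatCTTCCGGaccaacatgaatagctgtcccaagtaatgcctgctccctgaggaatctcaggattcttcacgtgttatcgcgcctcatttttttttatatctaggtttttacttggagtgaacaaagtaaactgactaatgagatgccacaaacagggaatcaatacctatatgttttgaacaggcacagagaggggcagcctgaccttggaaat
Cox6a1 and Atp5l have the NRF1 and ETS letters and Atp5j those of ETS and YY1. In Cox6a1 the NRF1 letters and their complement overlap in 1 run of capitals. Their median levels were 178, 184 and 171 CPM per kb for Cox6a1, Atp5j and Atp5l, and at 33.5 CPM per kb for Ndufs8.

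Nearly the whole respiratory chain was expressed. Of the 85 genes, 77 had a median of at least 10 CPM over the libraries and 78 were at 0 in no library. Levels are compared between genes as CPM per kb of the principal transcript. The median over genes was 31.9 CPM per kb in complex I, 50.8 in complex II, 42.8 in complex III, 88.6 in complex IV and 125 in complex V. Cox7c, a small complex IV subunit, was highest at 352 CPM per kb, followed by Atp5b, the catalytic beta subunit of the ATP synthase, at 287. Ndufb9 led complex I with 108, Uqcrh led complex III with 176 and Sdhd led complex II with 72.9 CPM per kb.

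Isoforms known from single tissues were low or absent. Cox6b2, a testis isoform, had a median of 5.38 CPM, and Cox7a1, a heart and muscle isoform, had 0.452 CPM with counts of 0 in 3 libraries. Cox4i2, known from lung, was at 0 in 14 libraries and Cox7b2 in 15, and the muscle isoform Cox8b, Ndufa4l2 and Cox8c were at 0 in 24, 25 and 27. A count of 0 allows up to 0.0877 CPM in the deepest library and 0.410 CPM in the shallowest, counting error only. The ubiquitous counterpart Cox8a had 83.5 CPM. Of the 3 genes for the same c-ring subunit of complex V, Atp5g2 had 176, Atp5g3 105 and Atp5g1 13.0 CPM per kb. The transcript lengths used were 731, 723 and 4715 bases. Before scaling by length the medians lay much closer, at 128, 75.7 and 61.1 CPM in the same order. Yjefn3 was at 0 in 19 libraries.

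**Figure D1:**
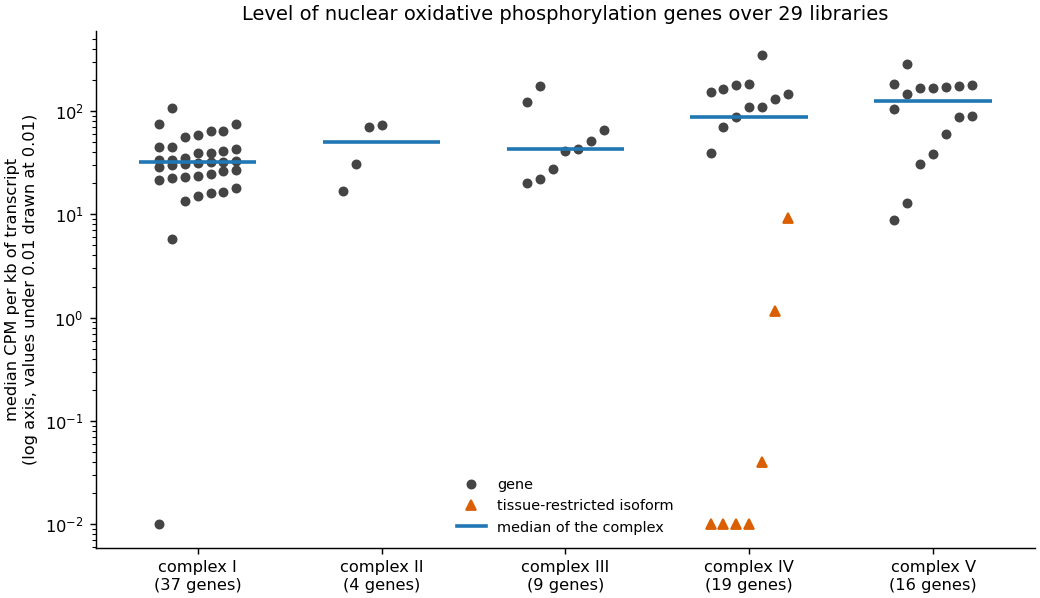
Median level of each of the 85 genes over 29 libraries, in CPM per kb of transcript on a log axis, by complex, with the median of each complex as a line, tissue isoforms as triangles and values under 0.01 drawn at 0.01. Cox7c stands highest at 352 CPM per kb, and Cox6b2 at 9.20 is the highest of the named tissue isoforms.

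Together the 85 genes took 0.4996% to 0.683% of all counts in a library, with a median of 0.567%. YISO libraries held 0.568% to 0.662% and YCNT libraries 0.4996% to 0.584%, so that the ranges overlap. OISO libraries held 0.510% to 0.558%, all below the YISO libraries. Among OCNT the 3 B6 libraries held 0.503% to 0.510% and the BoyJ library 0.626% (95% Wilson interval of counting error 0.623% to 0.630%). OHET spread widest, from 0.503% to 0.683%, while YHET held 0.586% to 0.601% and OHETX 0.580% to 0.599%. The 13 mitochondrially encoded chain genes took 3.98% to 6.1% of counts. Single genes varied by a median SD of 0.34 on the log2 scale, and 8 genes, among them Ndufb6, Ndufb7 and Ndufa9, by more than 0.5.

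**Figure D2:**
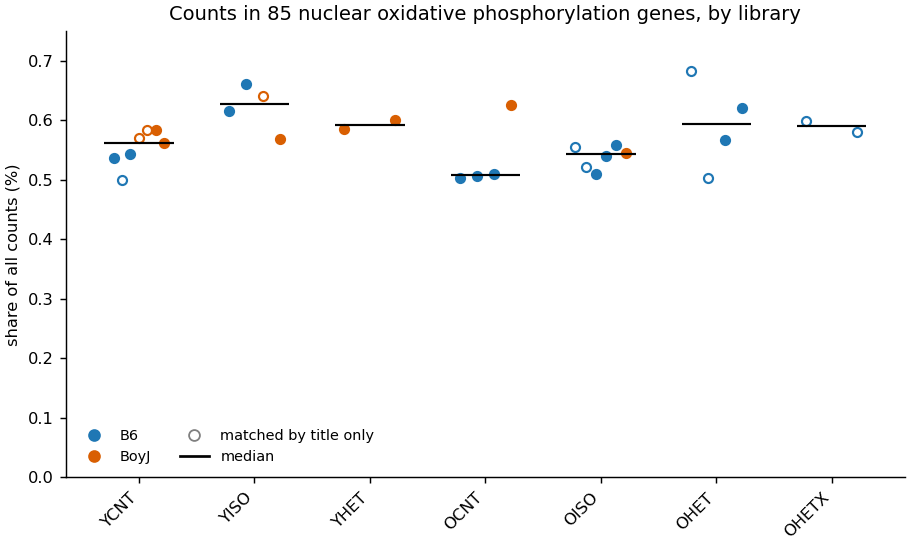
Share of all counts in the 85 genes, in percent, for each of 29 libraries by condition, with the median of a condition as a line, strain as colour and open points for libraries matched by title only. The OISO libraries lie between 0.510% and 0.558% and the YISO libraries between 0.568% and 0.662%.

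In the tests, 82 of the 85 genes passed the filter on low counts; Cox8b, Cox8c and Ndufa4l2 did not. A gene was called at an adjusted p under 0.05, with p-values adjusted over 16068 genes by edgeR's quasi-likelihood test. Log2 fold changes are given with their SE. For 11 of the 85 genes, among them Atp5l, Cox7c, Uqcrb, Atp5g2 and Ndufs3, a transcript of another gene holds a copy of at least 95% identity. The copy covers at least 50% of the length, and only for Atp5l is such a copy itself a row. The spans of 24 genes, introns included, overlap another row. Reads may be shared with such copies or neighbours, which was not tested, and whether the counting used strand is not given in the sources used here. The comparisons share libraries (YISO stands in 3 of the 7 main ones), so values are set side by side without being counted as separate evidence.

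The first question is how the chain differs between young mice joined to a like-aged partner and unjoined young mice. Respiratory genes were mostly higher in YISO, by small amounts that did not pass the test singly: 74 of 82 had a positive fold change, the median was 0.28 against -0.01 over all genes, and 25 had an unadjusted p under 0.05, all higher (5.48% of all genes). edgeR called 0 of 82 (0% of all genes), limma-voom 0 and DESeq2 1, Ndufs8. All 9 genes of complex III and all 4 of complex II were positive, as were 33 of 37 in complex I, 15 of 16 in complex V and 13 of 16 in complex IV. The 25 comprise 8 genes of complex I (Ndufs8, Ndufs3, Ndufa2, Ndufa12, Ndufa13, Ndufb8, Ndufb9 and Ndufb11), Sdhc of complex II, and Uqcr10, Uqcrb and Uqcrh of complex III. In complex IV they are Cox5a, Cox7b, Cox7c, Cox8a and Ndufa4, and in complex V 8 genes of the F1 head (Atp5c1 and Atp5e), the c-ring (Atp5g1 and Atp5g2) and the stalk and membrane part (Atp5h, Atp5j, Atp5l and Atp5o). The 3 genes of complex IV with negative values, Cox7a1, Cox4i2 and Cox7b2, are tissue isoforms near 0.

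Ndufs8 (ENSMUSG00000059734, chr19:3908863-3912774, minus strand) encodes a core complex I subunit that holds iron-sulphur clusters. It had 65.0, 72.2, 47.5 and 55.2 CPM in YISO and 23.4 to 51.3 CPM in YCNT, with a median of 30.5. Only the highest YCNT library reached into the YISO range. The log2 fold change was 0.87 ± 0.22 (adjusted p = 0.256 by edgeR, 0.0272 by DESeq2). Ndufa13, an accessory complex I subunit, had 81.2, 116, 109 and 78.8 CPM in YISO and 64.2 to 79.1 in YCNT, median 69.7. Its groups overlapped by 1 library each, and the difference was 0.45 ± 0.12 (adjusted p = 0.258 by edgeR). Cox8a, the common form of a small complex IV subunit, had 115, 98.8, 127 and 78.4 CPM against 57.4 to 91.6, median 70.7. Its difference was 0.55 ± 0.17 (adjusted p = 0.310 by edgeR). In the authors' deposited table of YCNT over YISO, Ndufs8 (adjusted p 0.0137) and Ndufa13 (0.0175) pass, both lower in YCNT.

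The count depended on single libraries: without YISOB6 replicate 2 the 25 became 6, and without YISOBJ replicate 2 they became 31. With the 19 libraries on which labels meet 14 genes had an unadjusted p under 0.05 and were higher, with a median of 0.27, and with columns matched by description 3, with a median of 0.08. Of the cell cycle genes 25 of 25 were positive here, 0 were called by edgeR and 14 had an unadjusted p under 0.05, and their summed share was 0.526% to 1.01% in YISO and 0.478% to 0.578% in YCNT. All 76 cytoplasmic ribosomal protein genes were positive too, 30 with an unadjusted p under 0.05. Their part in the result was not tested.

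The second question is how old and young mice differ when each has a like-aged partner. Respiratory genes were mostly lower in OISO than in YISO, and 1 passed the test. Ndufs8 was called lower (1 of 82, against 1.45% of all genes), so the number called was near the share of all genes. Of 82 genes 64 had a negative fold change, the median was -0.17 against 0.00 over all genes, and 10 had an unadjusted p under 0.05, all lower (6.07% of all genes). This 10 became 4 without YISOB6 replicate 2 (median -0.09), 18 without YISOBJ replicate 2 (median -0.25), 17 without the strain term, and by description 6 lower and 1 higher. All 9 complex III and 4 complex II genes were negative, as were 15 of 16 in complex V. Nearly all of the 18 genes with positive values belonged to complexes I and IV.

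For Ndufs8 the 6 OISO libraries had 26.9 to 34.6 CPM, median 31.5, and lay below all 4 YISO libraries. The log2 fold change was -0.92 ± 0.23 (adjusted p = 0.0380 by edgeR, 0.00675 by DESeq2, 0.0318 by limma-voom). The call was lost with the 19 libraries (-1.02, adjusted p = 0.0707 by edgeR) and by description (-0.55, adjusted p = 0.416 by edgeR), and without any 1 of 7 libraries: YISOB6 replicates 1 and 2, OISOB6 replicates 1, 2, 3 and 5, and OISOBJ replicate 1, where the adjusted p by edgeR reached up to 0.199. In the authors' deposited table of YISO over OISO, Ndufs8 passes (log2 0.87, adjusted p 0.00184).

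Ndufa4, a complex IV subunit, had 156, 168, 142 and 103 CPM in YISO and 78.5 to 122 in OISO, median 93.5. These ranges overlap, and the difference was -0.54 ± 0.18 (adjusted p = 0.141 by edgeR). Cox5a, a nuclear-encoded complex IV subunit on the matrix side, had 103, 130, 83.4 and 73.8 CPM against 60.4 to 73.1. The lowest YISO and highest OISO libraries stood at 73.8 and 73.1 CPM, so that the ranges only just did not overlap, and the difference was -0.54 ± 0.19 (adjusted p = 0.157 by edgeR). Without YISOBJ replicate 2, the lowest YISO library for all 3 of Cox8a, Ndufa4 and Cox5a, Ndufs8, Atp5l and Ndufa4 were called. Of 25 cell cycle genes 5 were called lower by edgeR and 0 were positive here; their shares were 0.374% to 0.538% in OISO. All 10 neutrophil markers had positive values, 1 of them called, with summed shares of 0.00980% to 0.0923% in OISO and 0.00431% to 0.0184% in YISO. All 8 stem cell markers were positive too, with 0 called and 4 at an unadjusted p under 0.05. The part of these lists in the difference of the respiratory genes was not tested.

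For unjoined old and young mice the values of the respiratory genes lay near 0. Between OCNT and YCNT 0 of 82 genes were called by edgeR (2.11% of all genes), by DESeq2 and by limma-voom. The 2 with an unadjusted p under 0.05 were higher (6.91% of all genes). They were Ndufa13 at 0.33 ± 0.13 and Cox7a2l at 0.30 ± 0.13, with an adjusted p by edgeR of 0.235 and 0.323. Cox7a2l is described as a factor that links complexes III and IV, and its function in these strains was not examined. The median was 0.04 against -0.02 over all genes, and 49 of 82 were positive. The lowest p among lower genes were those of Ndufa4 at -0.28, Ndufs4 at -0.20 and Ndufb3, an accessory complex I subunit, at -0.38. The median depended on which OCNT libraries entered: without the 3 OCNT libraries of B6 the median was 0.24, with 13 genes higher at an unadjusted p under 0.05, and without OBJCNT replicate 1, the single BoyJ library, it was -0.09 and by description -0.10. That library also differs from the other 3 in age (21 against 22 months) and in its share of immediate early genes (0.0593%), which cannot be told apart from strain here. Of 25 cell cycle genes 8 were called lower by edgeR and of 20 immediate early genes 7 higher, and their part was not tested.

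The difference of the 2 age effects, joined minus unjoined, was tested as an interaction. edgeR called 0 of 82 genes (0% of all genes), as did DESeq2 and limma-voom. The median was -0.27, 13 were positive and 6 had an unadjusted p under 0.05, all lower (2.5% of all genes). Without the OCNT libraries of B6 the median was -0.46 with 17 lower, and by description -0.05 with 2 lower and 1 higher. Ndufs8 stood at -1.09 ± 0.32 (adjusted p = 0.898 by edgeR), Ndufa13 at -0.50 ± 0.18 and Ndufs3, another core complex I subunit, at -0.81 ± 0.32, each with that adjusted p.

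**Figure D3:**
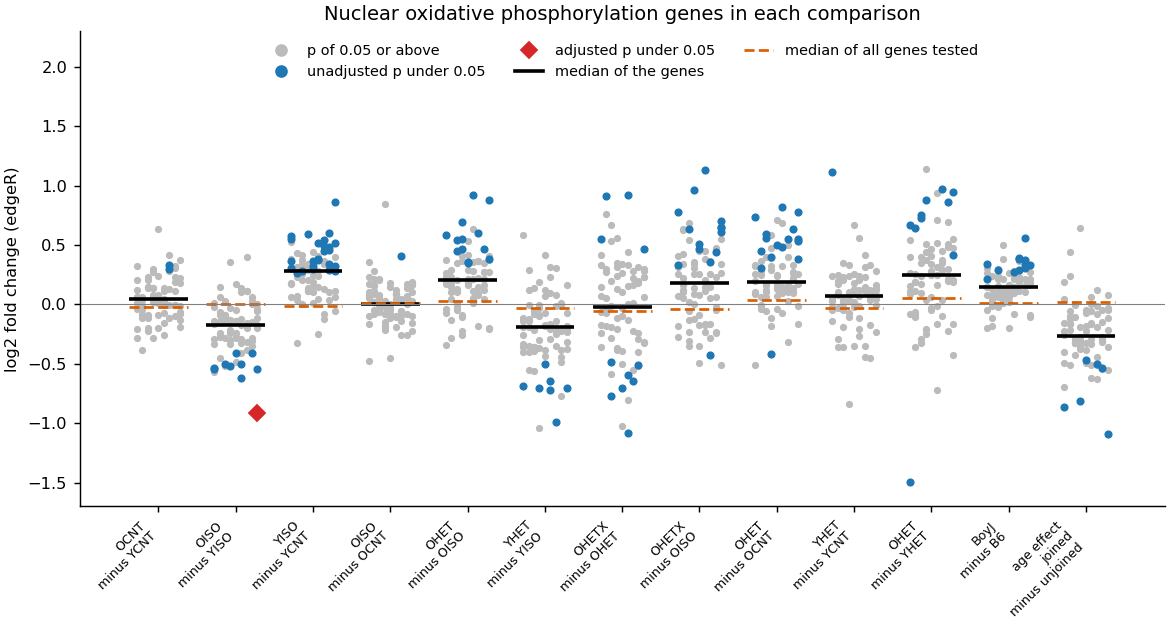
Log2 fold change of 78 tested genes whose mean log2 CPM reached 1 in 13 comparisons (4 lower genes are not drawn), with the median over the 82 tested genes as a solid line and that over all 16068 genes as a dashed line. 1 gene, Ndufs8 in OISO minus YISO, is drawn as called, and the median of YISO minus YCNT stands at 0.28.

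**Figure D4:**
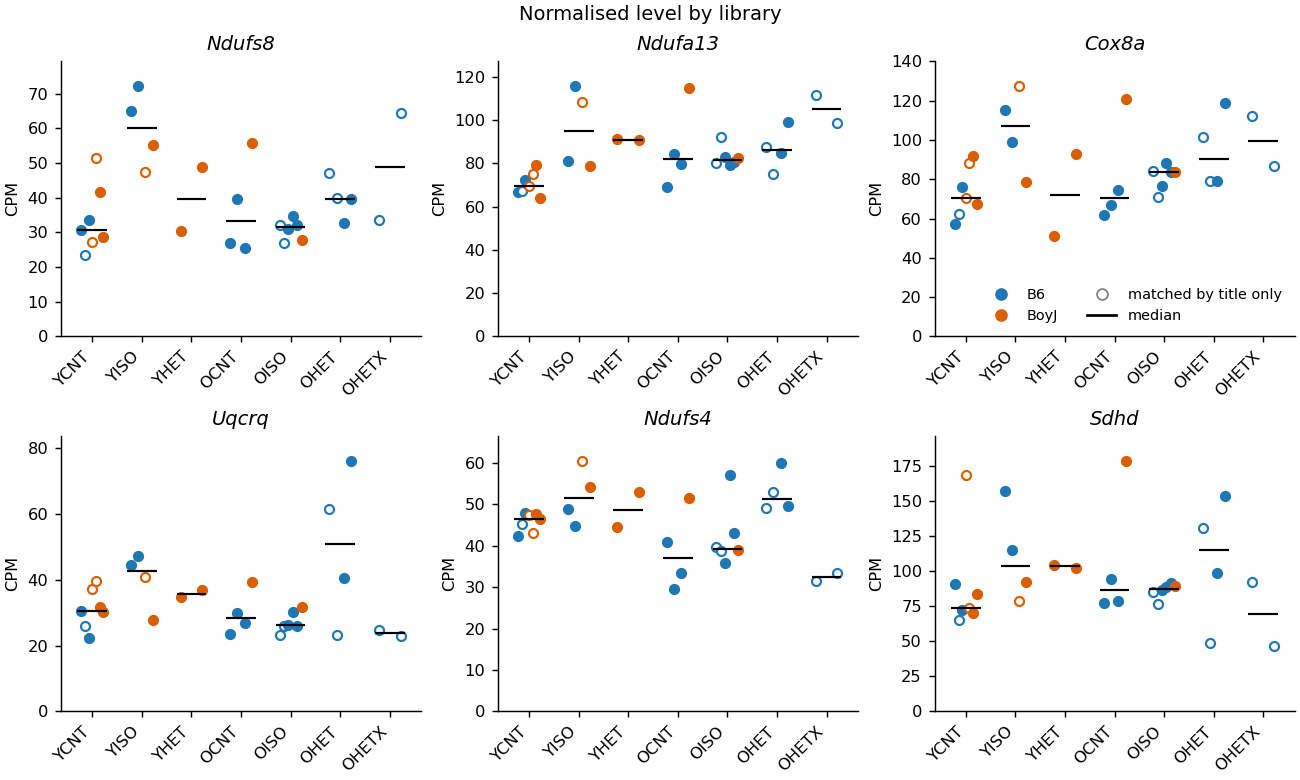
CPM of 6 genes in each of 29 libraries by condition, with the median of a condition as a line, strain as colour and open points for libraries matched by title only. The OISO libraries lie below the 4 YISO libraries for Ndufs8, and the 4 OHET libraries range from 23.2 to 75.9 CPM for Uqcrq.

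Old mice with an old partner were next compared with unjoined old mice, and no respiratory gene passed the test. For OISO minus OCNT 0 of 82 genes were called by edgeR (0% of all genes), DESeq2 and limma-voom, the median was 0.00, and 1 gene had an unadjusted p under 0.05 and was higher (2.51% of all genes), the c-ring gene Atp5g1 at 0.41 ± 0.20 (adjusted p = 1 by edgeR). Among genes with a mean log2 CPM of 1 or more Cox6b2 had the largest difference, 0.84 ± 0.44, with 15.7 CPM in OISOB6 replicate 1 and at most 8.53 in the other OISO libraries. Without the OCNT libraries of B6 the median was -0.22. Leaving out OBJCNT replicate 1 instead gave a median of 0.09, with 4 genes higher at an unadjusted p under 0.05 by edgeR. With all libraries limma-voom gave a median of 0.09 and 8 genes higher at that threshold.

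The third question is what a young partner changes for old stem cells. Respiratory genes were mostly higher in OHET than in OISO, with large spread between the OHET libraries: 66 of 82 were positive, the median was 0.21 against 0.03 over all genes, and 13 had an unadjusted p under 0.05, all higher (5% of all genes). This 13 became 23 without OHETB6 replicate 2, and 10 higher and 2 lower without OHETB6 replicate 1. It became 10 without OISOB6 replicate 3 or OISOBJ replicate 1. With the 19 libraries on which labels meet 14 were higher and 2 lower, and by description 8 higher and 2 lower. The median was 0.16 without OHETB6 replicate 4. edgeR called 0 of 82 (0% of all genes), limma-voom 0 and DESeq2 1, Uqcrq. Uqcrq (chr11:53427922-53430831) encodes a small complex III subunit known as a ubiquinone-binding protein. It had 61.3, 23.2, 40.4 and 75.9 CPM in OHET and 23.2 to 31.8 in OISO, median 26.2. The second OHET library lay among the OISO libraries and the other 3 above them, at 0.92 ± 0.23 (adjusted p = 0.474 by edgeR, 0.0305 by DESeq2). Without OHETB6 replicate 4 the difference was 0.65. Ndufc1 and Ndufa7, accessory complex I subunits, stood at 0.88 ± 0.27 and 0.55 ± 0.17. Cell cycle genes (22 of 25 positive, 0 called, 2 at an unadjusted p under 0.05) and the 13 mitochondrially encoded genes (13 positive, 0 called, 2 at an unadjusted p under 0.05) had positive medians too, of 0.19 and 0.15, and their part was not tested. Of the named genes Ndufa7 did not overlap, with 35.2 to 44.4 CPM in OHET and 21.8 to 34.3 in OISO.

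The same OHET libraries against OCNT gave 0 called by edgeR (0.0249% of all genes) and limma-voom and 1 by DESeq2, Cox7c. Higher at an unadjusted p under 0.05 were 15 (5.89% of all genes) and lower 1, Ndufa10 (3.88% of all genes). Cox7c had 239, 273, 194 and 233 CPM in OHET and 130, 184, 158 and 190 in OCNT, at 0.55 ± 0.14 (adjusted p = 0.171 by edgeR). The groups did not overlap. Without the OCNT libraries of B6 the median of 0.19 became -0.07, with 0 higher and 2 lower, and by description 5 were higher and 1 lower.

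For young stem cells with an old partner most values were negative, on 2 libraries of 1 strain. In YHET minus YISO 0 of 82 were called by edgeR (0% of all genes), DESeq2 and limma-voom, 64 were negative, the median was -0.19 against -0.03, and 7 had an unadjusted p under 0.05, all lower (3.02% of all genes). This 7 became 2 without YHETBJ replicate 1, 4 without YISOB6 replicate 2 or OBJCNT replicate 1, 13 without YISOBJ replicate 2, and 3 without the strain term, and by description 2 were higher and 1 lower. Ndufb8, an accessory complex I subunit, had 27.5 and 38.8 CPM in YHET and 67.3, 61.5, 73.7 and 41.9 in YISO, without overlap, at -0.99 ± 0.29 (adjusted p = 0.664 by edgeR). Cox8a and Sdhc, a membrane anchor of complex II, stood at -0.69 ± 0.26 and -0.65 ± 0.26. All 25 cell cycle genes were negative here, with 0 called by edgeR and 3 at an unadjusted p under 0.05, and their part was not tested. Against YCNT 0 were called by all 3 tools (0% of all genes), the median was 0.08 and 1 had an unadjusted p under 0.05 and was higher (2.45% of all genes). This was Ndufv1, the NADH-binding core subunit, with 55.2 and 32.2 CPM in YHET and 14.8 to 29.6 in YCNT, at 1.11 ± 0.33. With columns matched by description the median of YHET minus YISO was -0.02.

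OHET minus YHET compares joined partners of both ages, where strain and age differ together and the strain term rests on other groups. edgeR called 0 of 82 (0.118% of all genes), limma-voom 0 and DESeq2 1, Ndufv1 (-1.49 ± 0.41 by edgeR). Higher were 9 at an unadjusted p under 0.05 (6.07% of all genes) and lower 1 (3.34% of all genes), Ndufv1. The median was 0.25 against 0.06 over all genes. Without the strain term it was 0.05, as over all genes, with 3 higher and 1 lower. By description 2 were higher and 5 lower with a median of 0.01.

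Old cells lodged in the young marrow were compared with the old cells that stayed in the old partner. The median of the respiratory genes lay near 0. For OHETX minus OHET 0 of 82 were called by edgeR (0.218% of all genes) and limma-voom and 4 by DESeq2 (Ndufs4, Uqcrq, Cox7a2l and Atp5j2, all lower). The median was -0.02 against -0.05 over all genes. At an unadjusted p under 0.05, 5 of 82 were higher (5.73% of all genes) and 7 lower (7.89% of all genes), each near the share of all genes. These became 10 and 5 without OHETB6 replicate 1, 4 and 12 without OHETB6 replicate 2, 3 and 11 without OHETB6X replicate 1 and 8 and 6 without OHETB6X replicate 2. By description they were 1 and 9, with a median of -0.35. Both OHETX libraries are among those matched by title only. Immediate early genes had 19 of 20 positive values and neutrophil markers 9 of 10, with 0 called in each, and their part was not tested.

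Ndufs4, an accessory complex I subunit known from a Leigh syndrome model, had 31.5 and 33.5 CPM in OHETX and 49.2, 53.1, 60.1 and 49.5 in OHET. The groups did not overlap, at -0.70 ± 0.21 (adjusted p = 0.134 by edgeR, 0.0265 by DESeq2). Cox7a2l had 119 and 141 CPM in OHETX, below the 178, 169, 267 and 200 of OHET, at -0.65 ± 0.18 (adjusted p = 0.102 by edgeR). Uqcrq had 24.6 and 22.8 CPM, at -1.09 ± 0.33 (adjusted p = 0.137 by edgeR). Its second OHET library, at 23.2 CPM, lay between both OHETX libraries. Ndufa12, an accessory complex I subunit, was on the other side, with 78.6 and 52.8 CPM against 49.8, 33.3, 33.1 and 22.4, at 0.92 ± 0.30 (adjusted p = 0.163 by edgeR). Yjefn3 was at 3.25 CPM in OHETB6X replicate 2 and at 0 in the other OHETX library and 3 of the 4 OHET libraries. The authors' deposited table of OHET over OHETX has Ndufs4 (log2 0.89, adjusted p 0.000387), Atp5j2 (0.77) and Uqcrq (0.91) past the threshold.

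OHETX minus OISO gave 0 called by edgeR (0.187% of all genes) and limma-voom and 3 by DESeq2: Ndufa12, Cox7c and Ndufa4, all higher. Higher at an unadjusted p under 0.05 were 14 (6.35% of all genes) and lower 1, Cox7a2l (6.68% of all genes). Ndufa12 had 23.3 to 35.2 CPM in OISO, below both OHETX libraries, at 1.13 ± 0.28 (adjusted p = 0.0682 by edgeR). The median was 0.18, and with columns matched by description it was -0.25, with 0 higher and 2 lower. Without OHETB6X replicate 2 edgeR called 2, Cox5a and Ndufa12, on the lone library with the high neutrophil and immediate early shares, and without OISOB6 replicate 4 it called Cox7c. The part of those shares was not tested.

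Between the strains 0 of 82 were called by edgeR (0.0124% of all genes), DESeq2 and limma-voom. This difference rests on the conditions that hold both strains, YCNT, YISO, OCNT and OISO. In OCNT and OISO it rests on 1 BoyJ library each, which also differs in age (21 against 22 months). Of 82 genes 68 were higher in BoyJ, the median was 0.15, and 12 had an unadjusted p under 0.05, all higher (4.19% of all genes). This 12 became 3 without the OCNT libraries of B6 (median 0.07), 4 higher and 1 lower with the 19 libraries, and 2 by description (median 0.04). All 76 cytoplasmic ribosomal protein genes were higher in BoyJ as well. Ndufb10 stood first at 0.56 ± 0.18 (adjusted p = 0.488 by edgeR). Ptprc, the gene that marks the BoyJ strain, is on chromosome 1. Of the respiratory genes described there, Sdhc stood at 0.27 ± 0.13, Cox5b at 0.31 ± 0.18, Ndufb3 at 0.08 ± 0.23, Ndufa10 at 0.06 ± 0.13 and Ndufs1 at -0.18 ± 0.18, with an adjusted p by edgeR of 0.729 or above.

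The 4 subunits of complex II, which also serves the TCA cycle, differed in spread. Sdha, the flavoprotein, had 159 to 279 CPM with an SD of 0.16 on the log2 scale. Sdhd, a membrane anchor, had an SD of 0.46. It lay at 169 CPM in YBJCNT replicate 1 and 178 CPM in OBJCNT replicate 1, while the other libraries of those conditions lay between 65.0 and 94.1 CPM. High values of Sdhd were also found in B6, at 157 CPM in YISOB6 replicate 1 and 153 CPM in OHETB6 replicate 4. The differences between YISO and YCNT were 0.11 ± 0.10 for Sdha, 0.44 ± 0.23 for Sdhb, 0.38 ± 0.17 for Sdhc and 0.37 ± 0.27 for Sdhd, with an adjusted p of 0.454 or above by edgeR.

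Other mitochondrial genes were read from lists in the same 2 comparisons, YISO minus YCNT first and OISO minus YISO second. Of 16 TCA cycle genes 11 and 3 were positive, with medians of 0.26 and -0.15, and 0 were called by edgeR. Fh1, fumarase, stood at 0.63 ± 0.20 and -0.58 ± 0.21. Of 78 mitochondrial ribosomal protein genes 56 and 25 were positive, with medians of 0.14 and -0.14. Only 1 of them was called, in OISO minus YISO (1.45% of all genes), Mrps5 at -2.20 ± 0.42 (adjusted p = 0.00427 by edgeR). The 13 mitochondrially encoded subunits had medians of 0.14 and -0.03, with 13 and 6 positive and 0 called, and 46 assembly factors 0.11 and -0.04, with 30 and 21 positive and 0 called. Of 14 regulators of mitochondrial genes 7 and 5 were positive and 0 were called. Nrf1, which activates respiratory genes, stood at -0.54 ± 0.23 in OISO minus YISO and Gabpa, a subunit of GABP, at 0.27 ± 0.13 in YISO minus YCNT. The 16 glycolysis genes had medians of 0.18 and -0.02 and 0 called; Pgk1 stood at -0.43 ± 0.14 in OISO minus YISO and Gapdh at 0.29 ± 0.10 in YISO minus YCNT. The 10 oxidant defence genes had medians of 0.24 and -0.27 and 0 called, with Gpx1 at 0.43 ± 0.12 and -0.32 ± 0.13. The 12 coenzyme Q synthesis genes had medians of -0.03 and -0.10 and 0 called. Counts with an unadjusted p under 0.05 in these lists ran up to 8 of 78, the mitochondrial ribosomal proteins in OISO minus YISO. Of all genes 13.1% had such a p in that comparison and 10.2% in YISO minus YCNT. The lists differ in size, so the largest count does not place the shorter lists against these shares.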

How the data were processed

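RNA from sorted haematopoietic stem cells was made into libraries with the Nugen Ovation Trio low input kit after PicoPure isolation, per the labels' protocols. The authors deposited estimated counts per gene; Salmon, DESeq2, FastQC, MultiQC and build GRCm38 are listed, without versions, in the submitters' processing notes. The authors also deposited tables of log2 fold changes and adjusted p-values, quoted only where named. Count columns were matched by the code in the sample title. For 10 columns the description names another sample; matching by title was checked after the files were seen, by correlating the deposited fold changes of 11 tables with log ratios of the counts (0.745 to 0.817 by title, -0.14 to 0.70 by description). 1 column was not used, and replicate 2 of YHETBJ had no column by title.

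Estimated counts were rounded to whole numbers. edgeR 4.0.16 in R 4.3.3 fitted condition plus strain over 29 libraries (TMM scaling, quasi-likelihood test, Benjamini-Hochberg adjustment over 16068 genes, 21 residual degrees of freedom), and was tested on simulated data. DESeq2 1.42.0 and limma-voom 3.58.1 were alternatives, as were a fit without strain, one without the filter, RLE size factors, the 19 libraries on which labels meet, matching by description (29 columns, without the unused one) and leaving out each library. CPM are counts over edgeR's TMM-scaled library sizes; promoters, gene coordinates and lengths came from RefSeq and GENCODE M21, and copies from BLAST 2.17.0. The genes, lists and tests were chosen with earlier results of these data known. Genes named in a comparison were those called or, with fewer than 3 called, the 3 with the smallest p in each direction, the largest difference at a mean log2 CPM of at least 1, the highest and lowest levels per complex, and all tissue isoforms, complex II and c-ring genes, Cox7a2l and genes on chromosome 1; 1 of these is not reported here. Genes with values per library, motif letters and printed promoters were chosen after values were seen, as were other genes named beside a count. Wilson intervals and the limit for a count of 0 (3 counts) cover counting error only.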

Additional observations from a re-analysis of the deposited data

Results flagged for a closer look

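A library was marked where its gap to the nearest other library of its condition was large against the range of the condition. Of 70 groups of values, 10 were marked. Chance marks about 5% of groups that were not picked by their values, but the genes looked at were chosen after values were seen. The 10 can therefore not be set against that rate, and values of 1 library are not independent of each other. OBJCNT replicate 1, the single BoyJ library among the unjoined old mice, was high for the share of counts in the respiratory genes (0.626%), for Ndufa4 (111 CPM), for Cox5a (72.1 CPM) and for Sdhd (178 CPM). YBJCNT replicate 1 was high for Sdhd as well, at 169 CPM. OISOB6 replicate 4 was low for Ndufa12, at 23.3 CPM, and high for Ndufs4, at 57.2 CPM. OISOB6 replicate 2 was high for Ndufa13, at 92.3 CPM, and OISOB6 replicate 1 for Cox6b2, at 15.7 CPM. OB6CNT replicate 2 was high for Ndufv1, at 31.9 CPM.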

How the results depend on the processing

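The number of respiratory genes called in OISO minus YISO was 0 with the 19 libraries on which labels meet and 0 by description, and 0 to 3 when single libraries were left out. DESeq2 called 1 gene in YISO minus YCNT, 1 in OHET minus OISO, 4 in OHETX minus OHET, 3 in OHETX minus OISO, 1 in OHET minus OCNT and 1 in OHET minus YHET. Leave-outs gave 0 to 2 for OHETX minus OISO and 0 to 1 for OHET minus OCNT, where Uqcr10 was called without OBJCNT replicate 1. Outside mitochondrially encoded and ribosomal protein genes the median share was 0.655%. Most alternatives for the 44 named results leave out 1 library, often of neither condition compared, so their number is no measure of robustness. Of 1613 alternatives 14 reversed the sign, 6 of them by description. By description these were Cox7a1 in OISO minus YISO (-0.037), Cox4i2 in YISO minus YCNT (1.33, and 1.87 with 19 libraries), Yjefn3 in OISO minus OCNT (2.26), Cox7b2 in OHET minus OISO (0.13), Cox4i2 in YHET minus YISO (-0.65) and Yjefn3 in OHETX minus OHET (-1.52). Without the OCNT libraries of B6, an alternative chosen after seeing the data, Ndufs4 in OCNT minus YCNT was 0.14 and Yjefn3 in OISO minus OCNT 2.07. Ndufa11 in OISO minus OCNT was 0.17 by limma-voom and 0.052 without OBJCNT replicate 1, and in OCNT minus YCNT -0.0029 without it. Cox4i2 in YHET minus YISO was -1.85 without YHETBJ replicate 3, and Yjefn3 in OHETX minus OHET -1.55 without OHETB6X replicate 2. On leaving out other single libraries the same 4 results reached 0.88 (Ndufa11, OCNT minus YCNT), -0.74 (Ndufa11, OISO minus OCNT), 7.30 (Cox4i2, YHET minus YISO) and 8.16 (Yjefn3, OHETX minus OHET). The cause was not tested. No paired analysis was possible because the labels do not say which mice were partners. The replicate numbers used here follow the order of the sample records and carry no pairing. Depth limits the isoforms near 0, whose fitted fold changes are no bounds.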
